A study of Mus musculus with 79 samples.

Results

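Mouse embryonic stem (ES) cells in which Tet1, Tet2 and Tet3 were all knocked out (TET KO) were compared with their wild-type parent line (TET WT) in 2i/LIF culture, at day 0 of the study's differentiation series. The comparison takes the 3 TET KO and 3 TET WT libraries of that condition, 6 of 79 in the series, and every gene that could be tested, 15267 in all. A second pair of lines from the same condition, a triple knockout of Dnmt1, Dnmt3a and Dnmt3b (DNMT KO, 3 libraries) and its own parent (DNMT WT, 2 libraries), supplied further estimates of the spread and a second knockout for reference. RNA had been captured with oligo-dT and sequenced strand by strand, and all 11 cultures shared the 2i/LIF medium. Each genotype was represented by 1 line, so the loss of the TET enzymes and any other difference between the knockout line and its parent cannot be told apart. The labels do not say whether replicates were separate cultures, so the p-values measure the spread between these libraries, which may be technical.

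TET enzymes are dioxygenases that oxidise 5-methylcytosine to 5-hydroxymethylcytosine and further to forms that base excision repair can replace with unmodified cytosine. They therefore act against the DNA methyltransferases, Dnmt3a and Dnmt3b, which set new methylation, and Dnmt1, which copies it at replication. In 2i/LIF, where inhibitors of MEK and GSK3 act together with the cytokine LIF, mouse ES cells hold a naive ground state with low DNA methylation; Tet1 and Tet2 are the main TET genes expressed there.

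Recovered depth was 10.07 to 12.25 M reads in the 6 libraries, so that 1 read on a gene of 2 kb equalled 0.0497 RPKM (reads per kilobase of transcript and per M reads) in the shallowest. Replicates correlated at 0.9941 to 0.9953 across genes, and reads differed between the 6 replicate pairs by a chi-square of 2.16 to 2.99 per gene, so no library looked like a repeat of another. Mitochondrial transcripts took 0.26 to 0.3% of reads in TET KO, less than the 0.36 to 0.39% of TET WT. The ES cell label fitted its markers: in TET KO Pou5f1 was at 440 to 466 RPKM and Nanog at 486 to 523, and in TET WT at 458 to 463 and 461 to 474. Zfp42, also an ES cell marker, was well expressed but lower in every TET KO library, with 186, 187 and 172 RPKM against 222, 216 and 223. Fgf5, which marks primed cells, and Col3a1, which marks fibroblasts, had no read in any of the 6 libraries. Col1a1, also a fibroblast marker, was weak but not absent. It had 50 reads over the TET KO group against 55 over the TET WT group, and at most 0.469 RPKM.

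The targeted genes were lower but not absent at the level of the whole gene. Tet1 (chr10:62804570-62908996, GRCm38) stood at 7.26, 8.65 and 9.05 RPKM in the 3 TET KO libraries and at 23.8, 25.4 and 21.6 in TET WT. The groups did not overlap, and the fold change on the log2(RPKM + 0.5) scale was -1.45 ± 0.09 (SE; limma, adjusted p = 8.55e-07). Tet2 was at 7.46, 7.7 and 8.09 RPKM against 12.5, 12.6 and 11.1, a log2 change of -0.61 ± 0.06 (limma, adjusted p = 1.39e-05). Tet3 was low in both lines, with 0.332, 0.38 and 0.259 RPKM against 0.615, 0.565 and 0.64 (log2 change -0.43, limma, adjusted p = 0.00358). Which exons were deleted is not given in the sources used here, so these whole-gene levels check the labels only in part. The opposing enzymes showed no call: the log2 change was 0.0 for Dnmt1, -0.12 for Dnmt3a and -0.05 for Dnmt3b, none with an adjusted p under 0.05. Of the 7 genes for DNA methyltransferases and their Uhrf partners, and of 24 for base excision repair, Gadd45 proteins and methyl-CpG readers, none passed the call described next.

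Calls required an adjusted p below 0.05 from limma together with a log2 change of 1 or more in either direction. By that rule 1035 genes, 6.78% of those tested, differed between TET KO and TET WT: 704 were higher in TET KO (4.61% of all tested genes) and 331 lower (2.17%). The share called higher, 68.0%, fell to 54.9% when each library was centred on its median and to 52.7% after quantile normalization. Centring moved the median log2 change of all genes by -0.13, so the split between rises and falls depends on the scaling. At any size of change, 7514 genes (49.2%) had an adjusted p under 0.05, and 8655 (56.7%) had TET KO and TET WT libraries that did not overlap; of the 1035 genes called, 1028 did not. Across all tested genes the root mean square log2 distance between group means was 0.549 for TET KO and TET WT, 0.301 for DNMT KO and DNMT WT, and 0.623 for the 2 wild-type parents.

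The genes called higher were mostly weakly expressed, and the genes called lower less so. In the group with the higher mean, the median level was 2.73 RPKM for genes called higher, 4.78 for genes called lower and 5.21 for genes not called, and 72.0%, 52.3% and 49.2% lay under 5 RPKM. The median size of the log2 change was 1.3 among rises and 1.38 among falls. On the log2(RPKM + 0.5) scale 25 falls and 8 rises exceeded 8-fold. The pseudocount limits the change that a weakly expressed gene can show, and more of the rises were weak. These counts therefore cannot show which direction held the larger ratios. The lower group had no read at all for 11 of the 704 rises and 18 of the 331 falls. Protein-coding genes made up 94% of rises, 87.6% of falls and 91.8% of genes not called.

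**Figure D1:**
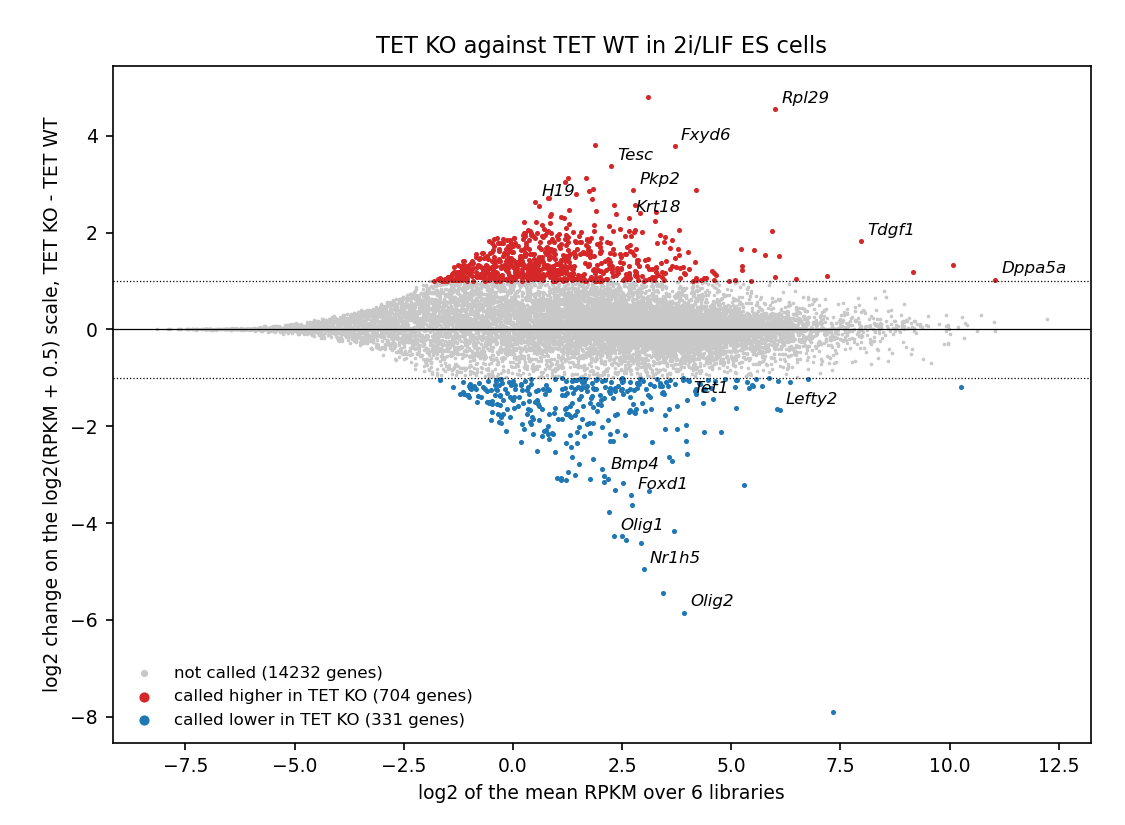
Log2 change between TET KO and TET WT ES cells (vertical axis, log2(RPKM + 0.5) scale) against the log2 of the mean RPKM over the 6 libraries (horizontal axis), 1 point a tested gene. The 704 genes called higher (red) and 331 called lower (blue) lie beyond the dotted lines at a log2 change of 1 and -1; Olig2, Nr1h5 and Rpl29 are among the outermost points.

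Among named genes above 5 RPKM, the largest rise was that of Rpl29, a ribosomal protein gene (chr9:106429454-106431568), with 122, 131 and 119 RPKM in TET KO and 5.66, 3.79 and 5.22 in TET WT. The log2 change was 4.55 ± 0.12 (limma, adjusted p = 2.63e-09), but Rpl29 has near-identical copies in the genome, so how reads were shared between them is uncertain. DNMT WT, at 8.35 and 8.26 RPKM, was on the side of TET WT. Next came Fxyd6, a regulator of the sodium-potassium pump, with 23.4, 24.3 and 26.3 RPKM against 1.23, 1.16 and 1.61 (log2 change 3.79 ± 0.09, limma, adjusted p = 1.04e-09). Every TET KO library was far above every TET WT library, and the DNMT lines lay between, at 10.2 to 11.7 RPKM. Tesc, which encodes the calcium-binding protein tescalcin, had 8.79, 9.32 and 8.78 RPKM against 0.0556, 0.562 and 0.769 (3.38 ± 0.24, limma, adjusted p = 1.57e-06).

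Pkp2, a desmosomal plaque protein, had 12.5, 12.4 and 11.5 RPKM in TET KO and 1.6, 1.26 and 0.868 in TET WT. Cldn7, a tight junction claudin, had 5.69, 6.29 and 6.7 against 0.318, 0.459 and 0.503, and Crb3, a polarity protein, 14.6, 11.2 and 13 against 1.81, 2.16 and 2.09. Krt18, an epithelial keratin, had 11.1, 11 and 10.5 against 1.97, 2.35 and 1.25. None of these groups overlapped, and the log2 changes were 2.88 ± 0.14, 2.86 ± 0.1, 2.41 ± 0.12 and 2.3 ± 0.28 in that order (limma, adjusted p = 1.55e-07, 1.36e-08, 1.32e-07 and 6.54e-05). Krt8, the partner keratin of Krt18, was at 16.9, 19.5 and 18.1 RPKM against 8.77, 9.18 and 8.75; at a log2 change of 0.99 it lay just outside the call.

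H2-K1, a class I antigen-presenting molecule, had 15.7, 17 and 17.4 RPKM against 2.58, 2.48 and 3.04 (2.43 ± 0.11, limma, adjusted p = 8.83e-08). Dhrs7 (2.81), Lrrc8b (2.69), Hebp1 (2.57), Crisp1 (2.44) and Rgcc (2.38) were also among the 15 largest rises under the naming rule, as was Tcfl5, described with the germline genes. A larger rise lay among genes with clone names, chosen here after its values were seen: AA467197 rose by 4.81 on the log2 scale, from 0.127 ± 0.104 to 16.9 ± 0.824 RPKM (SD, n = 3), and the DNMT lines held 37.7 and 41.1 RPKM on average.

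Olig2 and Olig1, neighbouring genes for transcription factors of the oligodendrocyte and motor neuron lineage on chromosome 16, showed the sharpest falls. Olig2 (chr16:91225457-91228677) was at 29.4, 31.2 and 29.9 RPKM in TET WT, with 2561 reads, while the 3 TET KO libraries held 1 read in all. The ratio was 2555 with a 95% counting interval of 458 to 100972. Olig1 had 10.4, 9.6 and 9.74 RPKM in TET WT and 2 reads in TET KO (ratio 360, interval 99.2 to 2976). Both fitted changes had an adjusted p of at most 1.82e-10 (limma). TET WT alone was high: both genes were under 0.05 RPKM in all 5 DNMT libraries.

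Nr1h5, a nuclear receptor gene on chromosome 3, followed the same pattern: 16.1, 16.7 and 14.9 RPKM in TET WT (1511 reads), no read in TET KO, which makes it at least 504-fold lower against the floor of 3 reads over the group, and under 0.05 RPKM in both DNMT lines. Apoc2, an apolipoprotein that activates lipoprotein lipase, was at 11.3, 11.1 and 13.5 RPKM in TET WT and had 2 reads in TET KO (ratio 164, interval 45.1 to 1361). Nrp2, a semaphorin co-receptor, had 8.42, 7.66 and 8.02 RPKM in TET WT, 0.322, 0.529 and 0.551 in TET KO and 0.623 to 0.919 in the DNMT lines. For Nr1h5 and Nrp2 the TET KO level was thus close to that of the DNMT lines. Apoc2 averaged 0.107 RPKM in TET KO, 0.354 in DNMT KO and 0.677 in DNMT WT. TET WT stood apart for each of these genes.

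Some falls ended below the DNMT lines too, others near or above them. Msc, a basic helix-loop-helix repressor, was at 1.39, 1.01 and 1.08 RPKM in TET KO, 16.3, 15.7 and 16.8 in TET WT and 15.7 and 15.5 in DNMT WT (log2 change -3.34 ± 0.08, limma, adjusted p = 1.75e-09). Foxd1, a forkhead factor, had 0.502, 0.762 and 0.89 RPKM against 12.2, 12.8 and 12.3 in TET WT (-3.42 ± 0.13, limma, adjusted p = 2.51e-08). It was also lower in DNMT KO than in DNMT WT, by -1.98. Zscan5b (-3.31), Ipp (-3.21), Aoah (-3.18), Nkx6-3 (-3.08) and Bmp4 (-3.02) fell as well, along with 3 histone genes given below. Of these, Ipp, at 7.39, 6.86 and 7.48 RPKM in TET KO, and Nkx6-3, at 0.69, 0.575 and 0.452, stayed above every DNMT library. Among clone-named genes, chosen after their values were seen, Gm10260 was at 1.09 ± 1.1 RPKM against 320 ± 8.35 in TET WT (SD, n = 3), with 1.0 and 1.5 in the DNMT lines, and Gm42047 had no read in TET KO and 4142 reads in TET WT, at least 1375-fold lower.

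**Figure D2:**
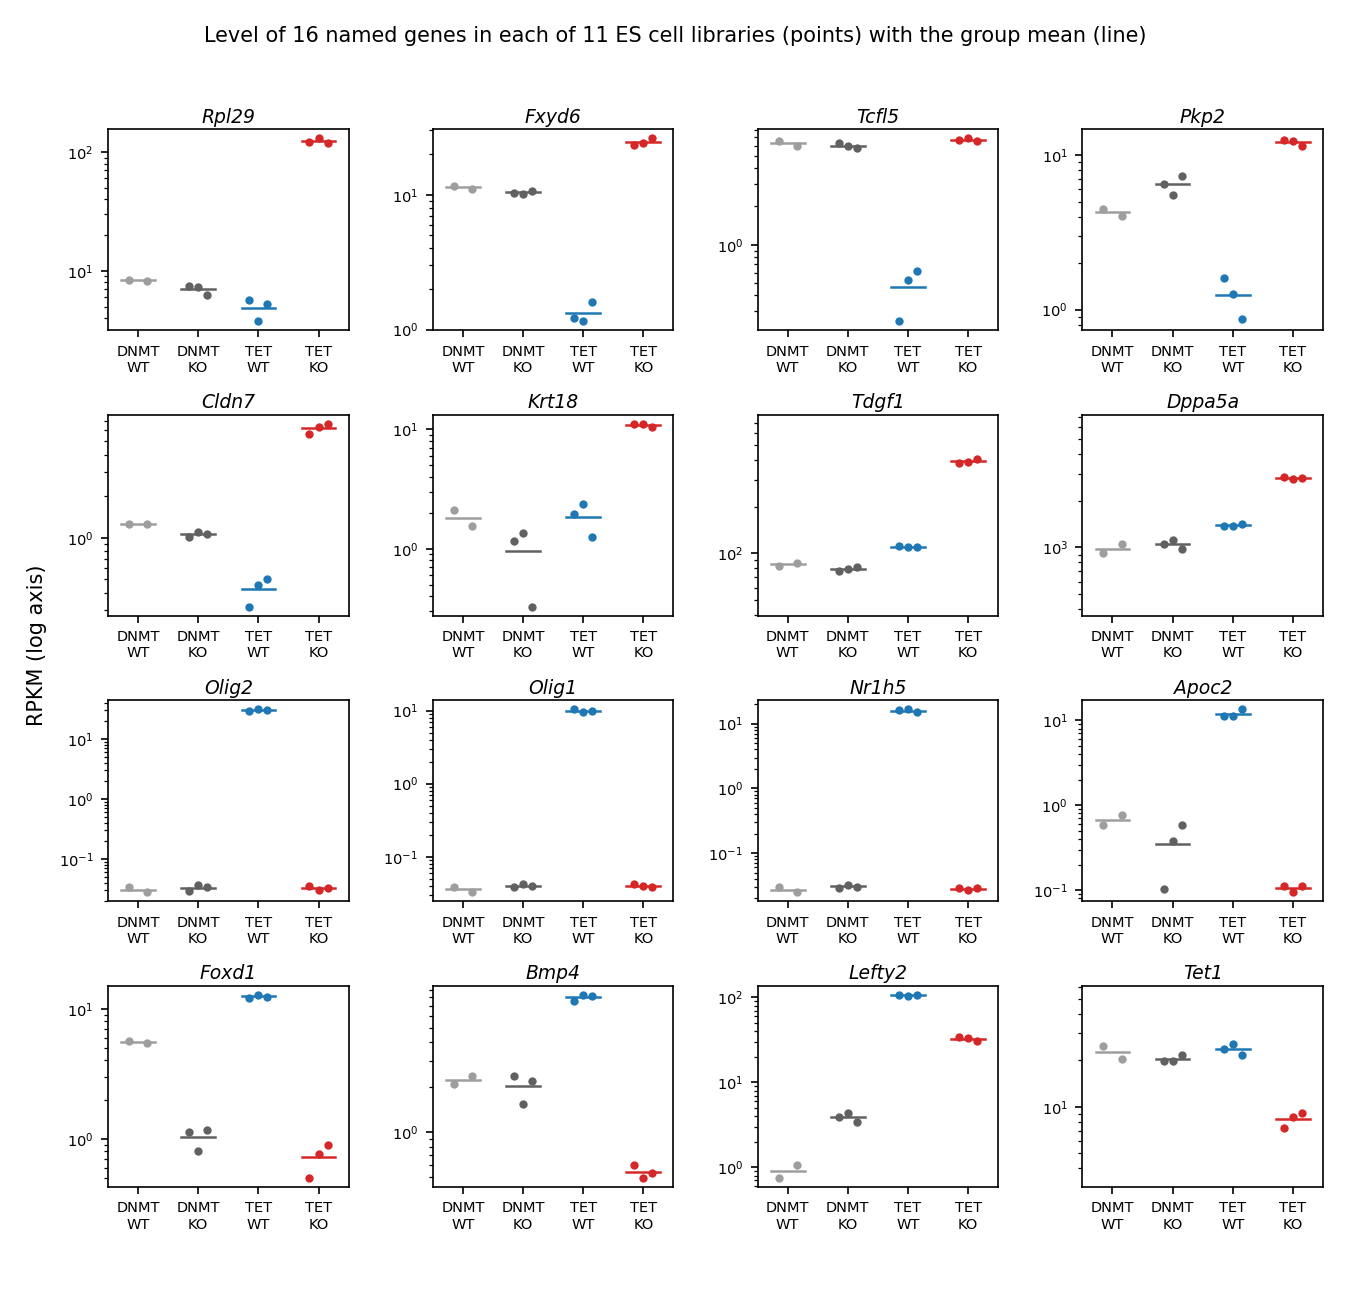
RPKM (log axis) of 16 named genes in each of the 11 ES cell libraries (points) with the group mean (line), for DNMT WT, DNMT KO, TET WT and TET KO. Points at the bottom of a panel that repeat at 1 level are libraries without a read; Olig2, Olig1 and Nr1h5 are high in TET WT alone, and Bmp4 is lower in TET KO than in any other line.

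The pluripotency network differed little between the lines. None of 12 general pluripotency genes and 1 of 18 naive genes was called, where 6.78% of all tested genes were. The median log2 changes, -0.06 and 0.12, were near the 0.06 of all genes tested. Of the core factors, Pou5f1 changed by -0.02, Nanog by 0.1, Sox2 by -0.07, Esrrb by 0.15, Tbx3 by 0.14 and Prdm14 by -0.19. Klf4, at 228, 224 and 218 RPKM against 154, 153 and 154, had a log2 change of 0.54 ± 0.02 (limma, adjusted p = 7.84e-08), larger than the spread between libraries but under the size needed for a call. Zfp42 (Rex1), a marker of naive cells on chromosome 8, changed by -0.28.

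The called naive gene was Dppa5a, an RNA-binding protein gene of pluripotent cells, at 2866, 2786 and 2830 RPKM in TET KO and 1379, 1375 and 1410 in TET WT. Its log2 change of 1.03 ± 0.05 (limma, adjusted p = 1.81e-07) sat at the threshold and became 0.9 with centred libraries and 0.74 after quantile normalization, which ends the call. Among 19 formative and primed genes 2 were higher, Krt18 and Cldn6, and 2 lower (4.61% and 2.17% of all tested genes). The lower ones were Otx2, a driver of the exit from naive pluripotency, with 0.194, 0.264 and 0.414 RPKM against 1.32, 1.98 and 2.36 (log2 change -1.58), and Etv4, an ETS factor downstream of ERK. Of 19 genes listed for the 2-cell-like state, none was higher and 2 were lower (4.61% and 2.17% of all tested genes). These were Pramel6, with no read in TET KO and 158 in TET WT (at least 52.3-fold lower), and Pramel7, with 2 reads and 303. Both were also expressed in the DNMT ES lines, Pramel6 at 32.9 to 35.9 RPKM and Pramel7 at 7.26 to 16.1. Pramel7 is in the list for LIF, STAT3 and JAK as well. Whether their falls reflect a change of the 2-cell-like state was not tested.

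Germline genes with methylation-sensitive promoters included both rises and falls, with more rises. This set holds meiotic, piRNA and germ cell genes that DNA methylation is known to keep silent in somatic cells. Of 47 tested, 16 were higher in TET KO and 3 lower, where 4.61% and 2.17% of all tested genes were, and the median log2 change was 0.51 against 0.06. Centring or quantile normalization left 14 higher and 3 lower. The promoters of the 5 with the largest rises are shown. The motifs marked in them are the E-box CACGTG, its own reverse complement and a site of the Max and Mga proteins, and TCCCGC. The latter reads as GCGGGA on the other strand. Not every window has both: Tcfl5 has no CACGTG and Mov10l1 no TCCCGC on either strand. Each runs 5′ to 3′ on the gene's strand from 250 bases before to 50 after the start (RefSeq, GRCm38.p6), with every match to either motif in capitals.
Tcfl5: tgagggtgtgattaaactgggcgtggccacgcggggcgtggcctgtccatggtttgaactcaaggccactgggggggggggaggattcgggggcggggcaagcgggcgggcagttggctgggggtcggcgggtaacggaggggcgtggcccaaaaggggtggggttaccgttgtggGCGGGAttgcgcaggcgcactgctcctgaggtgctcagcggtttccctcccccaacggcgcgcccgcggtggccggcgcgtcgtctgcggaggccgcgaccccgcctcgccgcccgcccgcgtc
Mov10l1: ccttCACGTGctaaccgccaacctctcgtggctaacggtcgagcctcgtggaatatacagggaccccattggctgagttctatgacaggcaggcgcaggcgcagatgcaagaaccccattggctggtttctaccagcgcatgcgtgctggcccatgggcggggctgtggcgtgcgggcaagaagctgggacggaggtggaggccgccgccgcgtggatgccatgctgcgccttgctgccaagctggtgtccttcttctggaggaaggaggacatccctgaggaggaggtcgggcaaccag
Mael: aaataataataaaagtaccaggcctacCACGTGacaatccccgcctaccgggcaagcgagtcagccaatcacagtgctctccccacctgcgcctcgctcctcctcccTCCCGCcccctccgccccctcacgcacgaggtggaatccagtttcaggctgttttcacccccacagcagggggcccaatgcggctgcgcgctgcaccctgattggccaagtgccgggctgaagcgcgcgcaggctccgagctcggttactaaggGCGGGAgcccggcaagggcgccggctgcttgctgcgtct
Ddx4: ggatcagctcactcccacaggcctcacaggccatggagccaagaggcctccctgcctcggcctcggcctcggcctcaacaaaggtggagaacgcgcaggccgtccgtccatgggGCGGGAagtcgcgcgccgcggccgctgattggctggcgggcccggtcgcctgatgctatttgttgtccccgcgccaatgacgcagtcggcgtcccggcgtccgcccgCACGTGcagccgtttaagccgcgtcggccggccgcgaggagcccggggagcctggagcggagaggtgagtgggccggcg
Sycp3: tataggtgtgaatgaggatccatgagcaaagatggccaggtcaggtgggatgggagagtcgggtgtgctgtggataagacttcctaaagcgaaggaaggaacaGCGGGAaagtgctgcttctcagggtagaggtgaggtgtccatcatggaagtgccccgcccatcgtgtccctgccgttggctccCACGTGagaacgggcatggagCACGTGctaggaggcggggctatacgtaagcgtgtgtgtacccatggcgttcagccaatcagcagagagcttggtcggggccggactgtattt
The windows are chr2:180642642-180642941 (Tcfl5, minus strand), chr15:88982744-88983043 (Mov10l1, plus), chr1:166238695-166238994 (Mael, minus), chr13:112652261-112652560 (Ddx4, minus) and chr10:88459337-88459636 (Sycp3, plus). They hold 35, 20, 24, 38 and 15 CpG sites in that order.

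Tcfl5, a testis transcription factor, had 6.6, 6.88 and 6.59 RPKM in TET KO and 0.252, 0.533 and 0.619 in TET WT, a log2 change of 2.91 ± 0.13 (limma, adjusted p = 6.99e-08). Mov10l1, a helicase of piRNA biogenesis, had 4.19, 4.0 and 5.19 against 0.275, 0.404 and 0.507, a change of 2.47 ± 0.14 (limma, adjusted p = 2.71e-07). Mael, which silences transposons in germ cells, had 2.99, 2.52 and 3.24 against 0.357, 0.63 and 0.0424, a change of 2.08 ± 0.24 (limma, adjusted p = 5.06e-05). TET KO was above TET WT in every library for all 3 genes, and the lowest Mael value is a library without a read.

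Ddx4 (Vasa), an RNA helicase of germ cells, was at 11, 10.5 and 12.4 RPKM against 2.29, 2.77 and 2.22 (2.01 ± 0.1, limma, adjusted p = 1.81e-07). Sycp3, a protein of the meiotic chromosome axis, was at 12.0, 9.23 and 10.8 against 2.87, 2.44 and 1.94 (1.94 ± 0.13, limma, adjusted p = 1.26e-06). The other 11 were Tdrd12, Taf7l, Meioc, Brdt, Syce1, Tdrd1, Slc25a31, Xlr3a, Smc1b, Hormad2 and Xlr3b, with log2 changes from 1.85 down to 1.03; Xlr3a and Xlr3b are near-identical copies and their split is uncertain. Tdrd1, a Tudor protein of the piRNA pathway, had 161 reads in TET KO and 1 in TET WT (ratio 161, interval 28.6 to 6412).

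The 3 that fell were Hormad1 (2.68 against 9.86 RPKM on average, log2 change -1.7), Rpl10l (32.2 against 101, -1.64) and Nanos3 (0.65 against 1.9, -1.18). The uncalled genes with the highest levels were Syce2, Hsf2bp and Tuba3a, whose log2 changes were -0.17, -0.21 and 0.04. In 11 of the 16 risers the DNMT WT mean lay nearer to TET KO than to TET WT, against 199 of all 704 genes called higher (28.3%) and 41.9% of genes not called. For these germline genes, then, the TET WT line was usually the low one of the 3.

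In the DNMT lines fewer genes of this list were called higher, and so were fewer of all tested genes. Higher in DNMT KO than in DNMT WT were 9 of the 47, and none was lower. Of all tested genes 0.511% and 0.524% were called higher and lower in that comparison. Of these 9, Slc25a31 and Mov10l1 also rose in TET KO, while Asz1, Pramel3, Magea5, Stra8, Sycp1, Dazl and Tuba3b did not. Dazl, an RNA-binding protein of germ cells, averaged 6.23 RPKM in TET KO and 5.82 in TET WT, and 114 and 40.9 in DNMT KO and DNMT WT. Asz1 had almost no signal in either TET line, 0.0295 and 0.0307 RPKM, and 9.65 and 1.04 in the DNMT lines. The change in TET KO was higher than that in DNMT KO for 14 of the 47 genes and lower for 10 (limma, test of the difference; 5.26% and 2.69% of all tested genes).

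All 16 germline risers had an entry in the promoter table, as did 43 of the 47 genes. CACGTG occurred on either strand in 8 of the 16 windows (50%), in 6 of the 27 germline genes with an entry that were not called higher (22.2%), in 10.3% of the 11174 tested genes with an entry and in 7.24% of all 27025 promoters of the table. TCCCGC occurred in 7 of 16 (43.8%), 11 of 27 (40.7%), 35.4% of tested genes with an entry and 20% of all promoters. The share of TCCCGC in the risers was thus near that in the uncalled germline genes and in tested genes. Among the printed windows Tcfl5 has no CACGTG, Mov10l1 has it 246 bases before the start, Mael 223, Ddx4 29, and Sycp3 at 64 and 43 bases before. These are matches of letters and were not tested against binding or methylation, which are not analysed here.

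**Figure D3:**
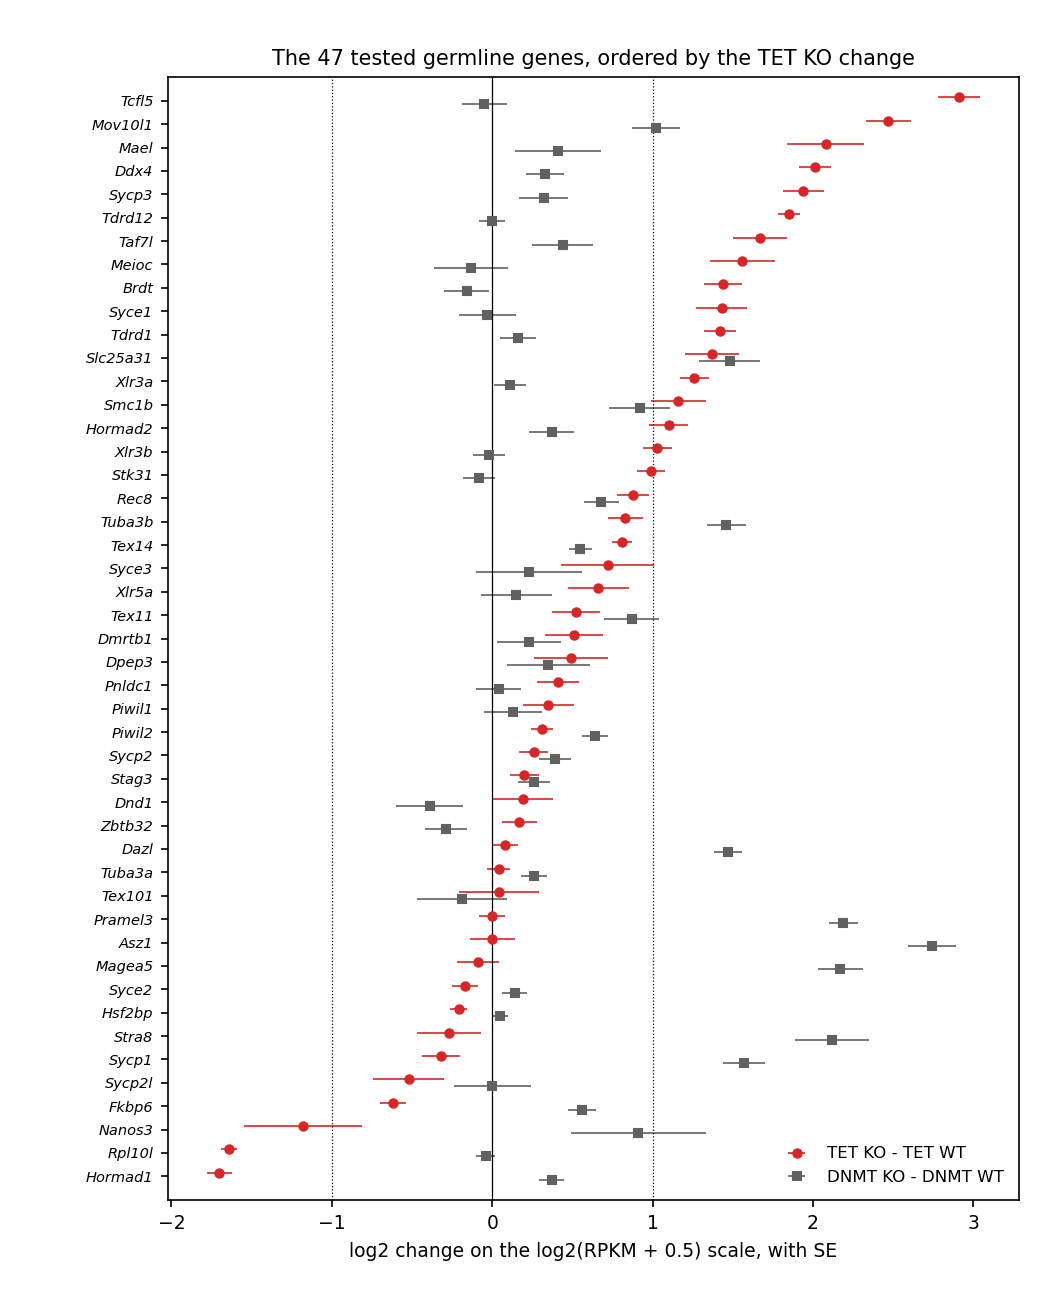
Log2 change with SE (horizontal axis, log2(RPKM + 0.5) scale) of the 47 tested germline genes in TET KO against TET WT (red) and in DNMT KO against DNMT WT (grey), ordered by the TET KO change. The 16 genes called higher in TET KO, from Xlr3b at 1.03 to Tcfl5 at 2.91, lie right of the dotted line at 1; Asz1, Pramel3, Magea5, Stra8 and Dazl are right of it in grey alone.

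Imprinted genes moved in both directions: 6 of 45 were higher and 2 lower (4.61% and 2.17% of all tested genes), and the median log2 change was 0.04, against 0.06 for all tested genes. Of the 6 risers, 5 lay together in the distal cluster of chromosome 7 (chr7:142575529-143503150), where 8 imprinted genes were tested and none fell. H19, a maternally expressed noncoding RNA, was at 2.81, 2.51 and 3.14 RPKM in TET KO and had no read in TET WT, at least 77.7-fold higher; it was also under 0.05 RPKM in the DNMT lines. Phlda2, a brake on placental growth, had 12.1, 10.3 and 10.2 RPKM against 4.18, 2.83 and 2.48 (log2 change 1.66 ± 0.2, limma, adjusted p = 6.43e-05). Slc22a18 (1.61), Cdkn1c (1.13) and Ascl2 (1.13) were the others, and Cd81, at 74.0, 71.5 and 77.5 RPKM against 61.8, 58.4 and 59.7, had a log2 change of 0.31. Ascl2 lost its call at a pseudocount of 1, without TET WT replicate 3 (0.95) or TET KO replicate 3 (1.0), and after quantile normalization.

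Away from that cluster, Nnat, a brain-expressed paternal gene, rose by 1.32. Peg10, a retrotransposon-derived gene of the placenta, fell from 22.7, 23.0 and 20.9 RPKM to 4.52, 5.3 and 5.12 (-2.05 ± 0.08, limma, adjusted p = 3.42e-08), and Grb10, a brake on growth factor signalling, from 3.06, 4.45 and 3.55 to 0.719, 0.557 and 0.688 (-1.85 ± 0.12). Snrpn and Snurf, which share a transcript, changed by -0.74 and -0.72 in TET KO but by 0.68 and 0.84 in DNMT KO, none of them called. Rhox genes are X-linked homeobox genes that methylation silences. Of 13 tested, Rhox13 was higher (1.35) and Rhox2a lower (4.61% and 2.17% of all tested genes). Leaving out TET WT replicate 3 brings Rhox2a to -0.74 and ends its call. The highest of them, Rhox5, had 18.1, 16.5 and 20.1 RPKM in TET KO, 26.5, 25.3 and 31.9 in TET WT, and 285 to 304 in DNMT KO.

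The Hox genes that were called were all lower, and no clustered protocadherin was called. The 34 clustered protocadherins had a median log2 change of -0.4; they share exons, so their values are not independent. Among 34 Hox genes 5 were lower and none higher (2.17% and 4.61% of all tested genes), all 5 from the HoxC cluster of chromosome 15. Hoxc10 had 0.428, 0.629 and 0.53 RPKM against 2.09, 2.55 and 2.57 (log2 change -1.5), and Hoxc11, Hoxc5, Hoxc6 and Hoxc4 changed by -1.37, -1.22, -1.19 and -1.05. All are weakly expressed and overlap one another, and at a pseudocount of 1 RPKM 1 of the 5 remained called. Hoxc4 also lost its call without TET WT replicate 1 (-0.93) or TET KO replicate 2 (-0.87).

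Genes of the Nodal pathway moved in opposite directions. Tdgf1 (Cripto), the co-receptor through which Nodal signals, was at 384, 391 and 407 RPKM in TET KO and 111, 110 and 109 in TET WT, with DNMT WT at 83.3 and 86.5. The log2 change was 1.83 ± 0.03 (limma, adjusted p = 9.65e-11). Lefty2 and Lefty1, secreted inhibitors and targets of the pathway, were lower: Lefty2 at 34.6, 33.0 and 30.6 RPKM against 106.0, 103.0 and 107.0 (-1.67 ± 0.09, limma, adjusted p = 2.53e-07), and Lefty1 at 6.61, 6.44 and 4.76 against 14.6, 15.5 and 15.8. Both were far lower in DNMT WT, where Lefty2 had 0.756 and 1.06 RPKM. Nodal itself, at 30.5, 30.8 and 34.4 RPKM against 33.3, 30.3 and 33.0, changed by -0.02. In all, 1 of 16 pathway genes was higher and 2 lower (4.61% and 2.17% of all tested genes).

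Of 17 genes for BMP ligands, receptors and Id targets, 2 were lower and 2 higher (2.17% and 4.61% of all tested genes). Bmp4, the ligand, was at 0.606, 0.496 and 0.532 RPKM in TET KO, 7.52, 8.31 and 8.17 in TET WT and 2.09 and 2.38 in DNMT WT (-3.02 ± 0.12, limma, adjusted p = 3.78e-08), and the BMP target Id1 fell by 1.51 on the log2 scale. Bmp7, another ligand, rose to 7.55, 6.95 and 8.19 RPKM from 2.51, 3.46 and 2.6, and Id2 to 4.73, 4.54 and 4.15 from 0.617, 1.14 and 1.0. Id3, at 14.8, 14.4 and 12.9 against 22.7, 29.5 and 24.9 RPKM, changed by -0.85, short of a call. Ligands and targets thus each had a member on either side.

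Of 22 genes for FGF signalling and ERK feedback, 7 were lower and 2 higher (2.17% and 4.61% of all tested genes). The other 13 were not called, and the median log2 change was -0.19. The MEK inhibitor in 2i holds ERK signalling low, and most of these genes were weakly expressed. Phlda1 had 0.371, 0.778 and 0.667 RPKM in TET KO and 7.18, 6.76 and 8.81 in TET WT (-2.88 ± 0.23, limma, adjusted p = 3.36e-06), and Etv4 had 1.99, 1.41 and 1.72 against 8.61, 8.8 and 9.02 (-2.09). Myc, the growth regulator, had 2.91, 3.47 and 2.44 against 11, 10.3 and 10.6 (-1.71 ± 0.11, limma, adjusted p = 1.01e-06). Spry4, a feedback inhibitor, changed by -1.95, Etv1 by -1.23, Junb by -1.18 and Dusp6, an ERK phosphatase, by -1.01. Dusp5 (1.36) and Ier3 (1.11) were higher. Fgf4, the main FGF ligand of ES cells, was at 78.1, 74.3 and 77.5 RPKM against 39.0, 42.5 and 40.3, a log2 change of 0.91 ± 0.04 that was not called.

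For Wnt targets and antagonists, 3 of 25 were higher and 2 lower (4.61% and 2.17% of all tested genes). The secreted antagonist Notum was at 26.1, 27.9 and 24.7 RPKM against 57.1, 53.7 and 58.8, and the target Sp5 at 17.4, 16.3 and 13.7 against 32.9, 33.0 and 34.0 (log2 changes -1.09 and -1.06; Sp5 is -0.96 and no longer called without TET KO replicate 3). Dkk3 (1.65), Nkd2 (1.08, or 0.96 with centred libraries, under the call) and Ascl2 were higher. Tcf7 and Ccnd1, well expressed in both lines, changed by 0.1 and -0.06. In the list for LIF, STAT3 and JAK, Pramel7 and Junb were lower of 16 (2.17% of all tested genes). Tfcp2l1 and Pim1 changed by -0.04 and -0.36.

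Among markers of other cell types, the trophoblast list had the most genes called higher. Of 19 trophoblast markers 7 were higher and 2 lower (4.61% and 2.17% of all tested genes), and their summed level was 89.4 to 94.3 RPKM in the TET KO libraries against 58.7 to 61.8 in TET WT. The risers were Krt18, Esx1 (1.93), Ly6a (1.85), Krt19 (1.61), Tfap2c (1.48), Krt7 (1.42) and Ascl2, and Tfap2a (-1.61) and Plet1 (-1.02) were lower. Tfap2c, an AP-2 factor of trophoblast and germ cells, averaged 19.4 ± 0.562 RPKM against 6.68 ± 0.571 (SD, n = 3), with 15.4 in DNMT WT. Of the defining markers, Cdx2 was at 1.12 to 1.38 RPKM against 1.32 to 2.07, and Elf5 had no read in TET KO and 2 in TET WT. Eomes, shared with mesoderm, was at 5.25, 5.9 and 7.48 against 4.98, 6.29 and 6.29.

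For primitive and visceral endoderm, 3 of 27 markers were higher and none lower (4.61% and 2.17% of all tested genes). The list summed to 454 to 458 RPKM in TET KO against 382 to 393 in TET WT. Apoe, not called, made a large part of these sums, at 223 RPKM against 179 on average. The list's median log2 change was 0.0. The 3 called were the basement membrane collagens Col4a1 (1.34) and Col4a2 (1.39), which share a promoter region on chromosome 8, and Amn, at least 14.8-fold higher over no read. At a pseudocount of 1 RPKM Col4a2 and Amn (0.71) were no longer called. Amn, on chromosome 12, was also not called with that chromosome's median subtracted (0.98). Gata4 was at 1.8 to 2.21 RPKM against 0.687 to 0.975, and Gata6 and Sox17 stayed under 0.4 in all 6 libraries. Mesoderm markers summed to 59.7 to 64.1 RPKM against 90.1 to 101.0 with 1 of 22 lower (Sp5), and T (Brachyury) was at 5.37, 6.15 and 6.79 RPKM against 3.36, 3.26 and 3.53, not called. Neural markers summed to 83.6 to 89.9 against 134 to 138 with Olig1 and Olig2 lower of 15, and Pax6 had 1 read in each line. Of 18 fibroblast markers Thy1 and Mmp2 were higher, and the summed levels overlapped (139 to 157 against 144 to 159). The part of cells of other types in these results was not tested, and in bulk RNA fewer cells of a type and less RNA per cell cannot be told apart.

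Most housekeeping and chromatin lists held few called genes. Of all tested genes 4.61% were called higher and 2.17% lower. Glycolysis had a median log2 change of 0.26, with Aldoc (1.38) and Pfkfb3 (1.22, or 0.97 and uncalled after quantile normalization) called of 23, and Ldha at 372, 370 and 404 RPKM against 238, 236 and 251 (0.66, not called). Cholesterol synthesis had none of 23 called and a median of 0.24, led by Insig1 (0.94) and Hmgcs1 (0.79); the median in DNMT KO was 0.22. Of 30 genes for Polycomb subunits 2 were higher and none lower. Pcgf5, a subunit of a Polycomb repressive complex, was among the higher ones (1.37, or 0.99 and uncalled at a pseudocount of 1 RPKM). None of 20 genes for H3K9 methylation and KAP1 silencing was called. Among 21 p53 targets Cdkn1a (p21), at 84.5, 86.3 and 88.9 RPKM against 38.2, 41.2 and 43.0, and Perp were higher. Cdkn1a is at 0.95 with centred libraries, under the call. Of 22 interferon genes Xaf1 alone was called (1.5), and of 10 apolipoprotein genes Apoc2 and Apod were lower.

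Histone, ribosomal and mitochondrial genes need care in these libraries. Of 41 replication-dependent histone genes 5 were lower, all Hist1h2a genes (2.17% of all tested genes were lower). Hist1h2ak had 0.924, 2.18 and 0.211 RPKM against 25.2, 21.2 and 27.2, and Hist1h2ao had 3 reads against 143 (ratio 47.6, interval 16 to 233). Their transcripts lack the poly(A) tail that oligo-dT captures, and the copies are near-identical. Of 79 ribosomal protein genes 3 were higher and 1 lower (4.61% and 2.17% of all tested genes). Besides Rpl29, Rplp0 was at 1575, 1543 and 1507 RPKM against 609, 609 and 613, Rps2 at 811, 798 and 773 against 353, 334 and 353, and Rps3a1 at 760, 732 and 733 against 1660, 1724 and 1698. All have processed pseudogenes, so these too are uncertain, and the list's median was 0.1. The 13 mitochondrially encoded genes had a median of -0.38 in TET KO and -0.36 in DNMT KO, with none called in either.

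Genes called lower started in sequence poorer in CpG than genes called higher. In the first 200 bases of the transcript (GENCODE M21), available for 98.8% of tested genes, the median number of CpG sites was 15 for the rises, 8 for the falls and 14 for genes not called. Fewer than 5 sites were present in 14.2% of rises, 28.6% of falls and 14.2% of genes not called. Split by expression, the medians were 14, 6 and 11 under 5 RPKM and 16, 10 and 17 from 5 RPKM upwards, so the falls had the lowest median in both classes while the order of rises and genes not called changed. This is a description of the called sets, without a test.

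2 chromosomes differed as a whole. Among 13420 genes with at least 20 reads, the median log2 change was -0.44 on chromosome 8 (729 genes, 80.5% of them lower in TET KO) and -0.46 on chromosome 14 (461 genes, 80.5%), while the other 18 ranged from -0.13 to 0.13 and DNMT KO moved no chromosome outside -0.03 to 0.07. The shift ran along the whole of both: over 8 successive parts the medians were -0.58 to -0.3 on chromosome 8 and -0.54 to -0.43 on chromosome 14. Levels by library were set against the mean of the group means, with each library's own median subtracted. Chromosome 8 was then at -0.33 to -0.35 in the TET KO libraries and 0.09 to 0.12 in the other lines. On chromosome 14 it was TET WT that stood apart, at 0.37 to 0.39, with TET KO at -0.05 to -0.07 and the DNMT lines at -0.12 to -0.18. A further difference, on chromosome 1, set both TET lines (-0.22 to -0.24) against both DNMT lines (0.22 to 0.23) and cancels in this comparison.

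**Figure D4:**
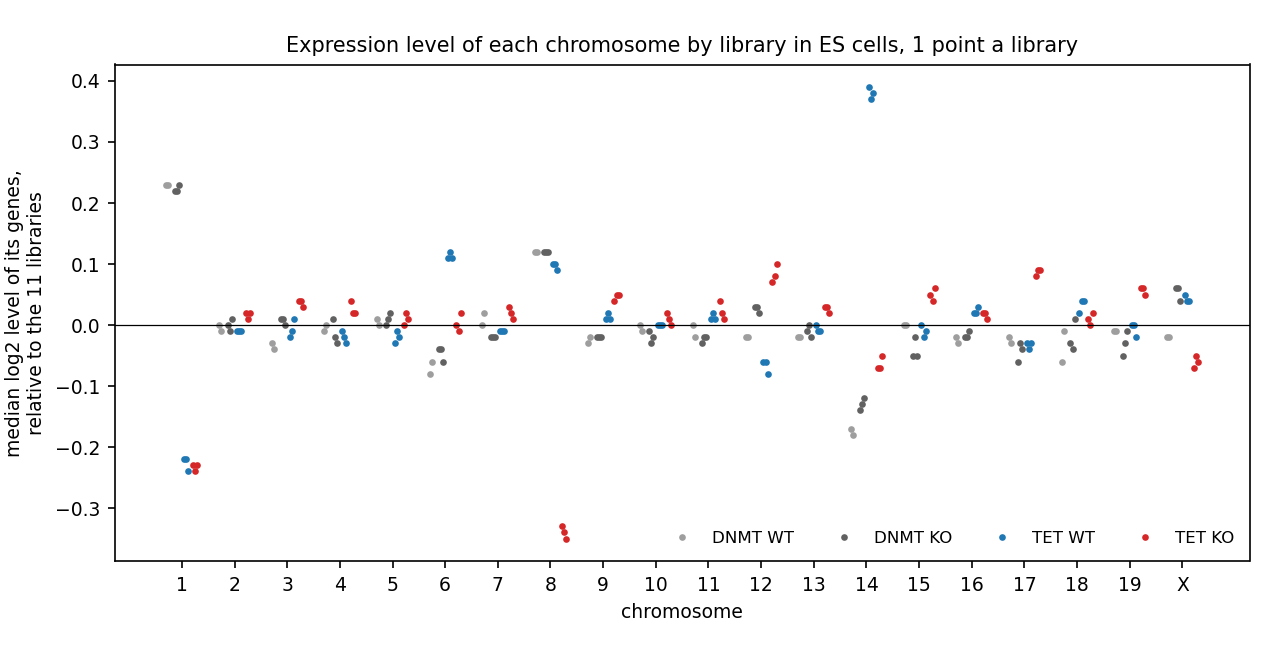
Median log2 level of the genes of each chromosome (vertical axis) by chromosome (horizontal axis), 1 point a library, coloured by line. Levels are relative to the mean of the group means, with each library's own median subtracted. Chromosome 8 is low in the 3 TET KO libraries, at -0.33 to -0.35, and chromosome 14 is high in the 3 TET WT libraries, at 0.37 to 0.39.

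The number of DNA copies of these chromosomes was not measured, and its part in the changes of their genes was not tested. On chromosome 8, 27 genes were called higher and 33 lower, and on chromosome 14 16 and 33. Large changes there exceeded the shift: Bmp4 (-3.02), Ccnb1ip1 (-2.31), Nefm (-2.35) and Gfra2 (-2.2) on chromosome 14, and Gm42047, Nkx6-3 (-3.08) and Ido2 (-2.43) on chromosome 8. Rgcc on chromosome 14 and Cotl1 (2.25) and Gas6 (2.02) on chromosome 8 rose against it. Junb, on chromosome 8, is at -0.89 once the chromosome's median is subtracted, under the call. Smaller values of genes on these chromosomes given above, such as Zfp42 at -0.28, lie within the shift. Without both chromosomes 925 genes were called, 661 higher and 264 lower.

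Called genes were often neighbours. An adjacent tested gene was called the same way for 24.3% of rises, where 8.19% of uncalled genes had a neighbour called higher, and for 19.3% of falls, where 3.94% of uncalled genes had a neighbour called lower. The 3 longest runs held 4 genes each, all higher. On chromosome 19 (chr19:56826209-57314919) Tdrd1 was followed by Vwa2 (1.14), Afap1l2 (1.07) and Ablim1, the last at 6.74, 7.1 and 6.87 RPKM against 2.21, 2.2 and 2.27. On chromosome 13 (chr13:45389742-46650281) the run was Mylip (1.09), Gmpr (1.62), Rbm24 (1.48) and Cap2 (1.45), and Cap2 rose in DNMT KO as well, by 1.26. On chromosome 2 (chr2:25395874-25461094) it was Entpd2 (1.33), Npdc1 (1.01), Abca2 (1.35) and Paxx (1.02). Of these 12 genes Mylip, Npdc1 and Paxx lost their call without single libraries. Mylip was at 0.97 without TET WT replicate 2 and 0.98 without TET KO replicate 3, Npdc1 at 0.93 without TET WT replicate 2 and 0.95 without TET KO replicate 2, and Paxx at 0.95 without TET WT replicate 3 and 0.86 without TET KO replicate 3. With centred libraries these 3 and Afap1l2 (0.95) were under the call. At a pseudocount of 1 RPKM 8 of the 12 were: Entpd2 (0.85), Npdc1 (0.84), Paxx (0.73), Mylip (0.97), Rbm24 (0.97), Tdrd1 (0.89), Vwa2 (0.7) and Afap1l2 (0.69). Quantile normalization also ended the call of Vwa2 (0.99).

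The 2 triple knockouts differed in size and in genes. In DNMT KO 158 genes (1.03%) were called, 78 higher (0.511%) and 80 lower (0.524%). Of the 704 rises in TET KO, 10 rose in DNMT KO (1.42% of the 704 and 12.8% of the 78) and 5 fell; of the 331 falls, 11 fell (3.32%, and 13.8% of the 80) and 9 rose. The test of the difference between the effects called 1214 genes (7.95%), 803 with a higher and 411 with a lower change in TET KO. With centred libraries the higher share of these went from 66.1% to 54.7%.

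Many of the differences between TET KO and TET WT were seen again in the later conditions, which use other libraries of the same lines: epiblast-like cells (EpiLC) at days 1 and 2 and embryoid bodies (EB) at days 2, 4, 6 and 8. Of the 704 rises 239, 234, 282, 219, 123 and 161 were called higher again in that order, 33.9%, 33.2%, 40.1%, 31.1%, 17.5% and 22.9% of them, where 3.35%, 4.8%, 4.7%, 7.6%, 3.24% and 5.84% of all tested genes were called higher. Of the later lists they made up 46.8%, 31.9%, 39.3%, 18.9%, 24.9% and 18%. Of the 331 falls 164, 122, 118, 56, 35 and 47 were lower again (49.5%, 36.9%, 35.6%, 16.9%, 10.6% and 14.2%), against 3.28%, 3.1%, 2.71%, 1.87%, 1.78% and 4.14% of all genes, and they made up 32.8%, 25.8%, 28.6%, 19.6%, 12.9% and 7.44% of the later lists. Calls in the opposite direction reached 32 rises and 23 falls at EB day 8. In at least 1 later condition 505 rises and 212 falls were called the same way, and in all 6 conditions 20 and 14.

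Among the named genes called the same way in all 6 were Rpl29, H19, Esx1, Rhox13 and the germline genes Mov10l1, Mael and Ddx4. Mael changed by 2.25 to 3.04 on the log2 scale across them, Mov10l1 by 1.04 to 2.42 and Ddx4 by 1.54 to 3.63. Nr1h5, Gm42047 and 3 Hist1h2a genes were lower in all 6. Tcfl5 was called higher again at EB day 2 (1.09) and EB day 8 (2.96). Bmp4 changed direction: -2.94 at EpiLC day 1, 1.59 at EB day 4 and -0.61 at EB day 8. Tdgf1 changed by 1.88 at EpiLC day 1, -1.43 at EB day 6 and 3.51 at EB day 8.

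**Figure D5:**
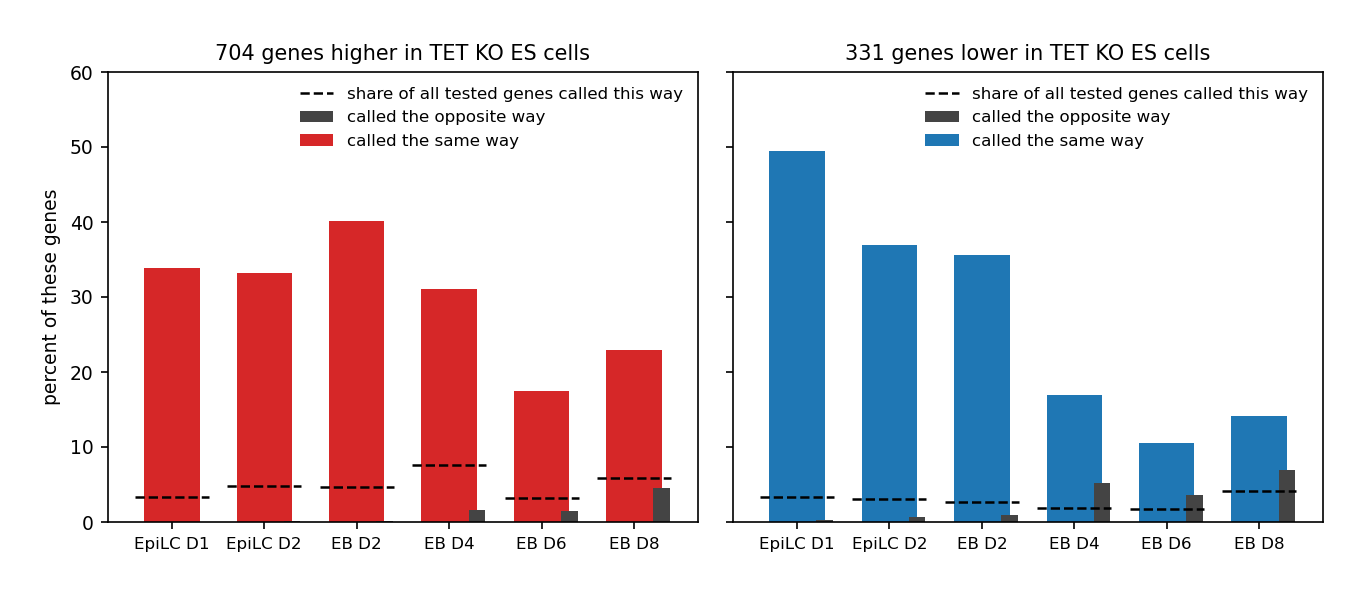
Percent of the 704 genes higher (left) and the 331 genes lower (right) in TET KO ES cells that were called the same way (coloured bars) or the opposite way (dark bars) at each later condition. The dashed lines give the share of all tested genes called in that direction; the same-way share is highest at EB D2 for rises (40.1%) and at EpiLC D1 for falls (49.5%).

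Tests of the difference in effect between ES cells and later conditions called 984 genes for EpiLC day 2 (6.45%; 493 or 3.23% with a higher and 491 or 3.22% with a lower change in ES cells) and 2022 for EB day 8 (13.2%; 1047 or 6.86% and 975 or 6.39%). The falls of Foxd1, Nrp2 and Nkx6-3 differed from EpiLC day 2, where their log2 changes were 0.07, 0.31 and -0.27. Nrp2 was weak in both lines there, at 0.253 RPKM in TET KO and 0.107 in TET WT on average. A fall of Nrp2 could thus hardly be seen at EpiLC day 2. So did the rises of Tcfl5 (0.06 there) and Pkp2 (0.18). Peg10, lower in TET KO ES cells by -2.05, was at 0.81 at EpiLC day 2.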

How the data were processed

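RNA from 79 libraries of 4 mouse lines was measured, and 11 ES cell libraries entered the main comparison. HISAT2 2.1.0 as the aligner, GRCm38 as the build and, for trimming, cutadapt 1.18 under Trim Galore 0.6.1 are named per the submitters' processing notes. Neither the counting tool nor the annotation is given in the sources used here. Values of log2 RPKM were deposited by the authors in 1 table of 35269 entries; 39 repeated identifiers were left out. Whole reads could be recovered from low values, a library with no read being set at 0.9 reads: with GENCODE M21 exon lengths 97.1% of values between 1 and 100 reads were whole within 0.1. These recovered reads gave the depth (9.74 to 12.69 M reads in the 11 libraries), the ratios with exact 95% intervals, and the floor of 3 reads over a group. Intervals and floors cover counting error only.

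The 15267 genes that reached 1 RPKM in 2 or more of all 79 libraries entered limma 3.58.1 in R 4.3.3 (linear model, empirical Bayes with trend and robust) on log2(RPKM + 0.5), which understates changes of low genes. All 11 libraries shared 1 estimate of spread (7 residual degrees of freedom), without a replicate block, and p-values were adjusted by Benjamini-Hochberg over all tested genes. Group levels are means with SD of RPKM. Later conditions were fitted with the libraries of their own day, and differences from EpiLC day 2 and EB day 8 with those of both conditions. The scripts were tested on simulated data. Named were the targeted genes, the 15 largest rises and falls from 5 RPKM upwards without clone names and without overlap, up to 5 called and 3 uncalled members of each of 32 lists, core pluripotency factors, up to 5 genes of each sign for each difference of effects, the 3 longest runs, and 5 genes on each shifted chromosome. The members and lists were chosen with earlier results of these data known. Alternatives changed the pseudocount, scaling, filter, model, libraries and chromosomes. Samples were grouped by genotype and condition as labelled. Results for some genes met by the naming rule are not reported here.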

Additional observations from a re-analysis of the deposited data

Results flagged for a closer look

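In each case below a test of the difference itself (limma) found that the effect of the TET knockout in 2i/LIF ES cells differed from another effect; differences are on the log2(RPKM + 0.5) scale and every adjusted p is given in the order of the genes. Of all tested genes, 1214 differed between the TET KO and DNMT KO effects, 984 between the TET KO effects in ES cells and at EpiLC day 2, and 2022 between ES cells and EB day 8. Named are the 5 genes with the largest difference of each sign, from 5 RPKM upwards and without clone names.

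Against DNMT KO, Rpl29 had a difference of 4.78 (adjusted p = 8.68e-08), Fxyd6 3.9 (3.17e-08), Tesc 3.74 (3.13e-05), Dnmt1 3.58 (3.71e-09) and Dhrs7 3.24 (2.63e-06). Dnmt1 is a deleted gene of the other line and had a log2 change of 0.0 in TET KO and -3.57 in DNMT KO. In the other direction stood Olig2 at -5.85 (1.4e-09), Nr1h5 at -4.96 (3.71e-09), Hist1h2ak at -4.81 (0.000857), Olig1 at -4.28 (8.39e-09) and Hist1h2ao at -3.96 (9.02e-07). For these 5 the DNMT KO change was small, 0.01 to 0.65, in lines that hardly express them.

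Against EpiLC day 2, the effect in ES cells was higher for Fxyd6 by 2.96 (adjusted p = 3.95e-10), Tcfl5 by 2.85 (1.48e-09), Pkp2 by 2.7 (7.42e-08), Fbxo15 by 2.63 (4.34e-13) and Trh by 2.5 (1.19e-06). Fbxo15 and Trh were not called in ES cells (0.35 and -0.83) and were at -2.28 and -3.33 in EpiLC. Lower in ES cells were Foxd1 at -3.49 (1.23e-11), Nrp2 at -3.46 (1.13e-11), Peg10 at -2.86 (3.5e-09), Nkx6-3 at -2.81 (2.1e-09) and Olig2 at -2.78 (6.27e-10). At EpiLC day 2 Nrp2 averaged only 0.253 RPKM in TET KO and 0.107 in TET WT, so a fall could hardly show there.

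Against EB day 8, the difference was 4.14 for Tesc (adjusted p = 1.7e-09), 3.89 for A2m (4.89e-11), 3.8 for Gas6 (1.73e-13), 3.55 for Cldn7 (4.69e-14) and 3.3 for Pkp2 (1.43e-12). A2m, a protease inhibitor, and Gas6, a ligand of TAM receptors, rose in ES cells (2.15 and 2.02) and were at -1.74 and -1.78 at EB day 8. The reverse held for Rpl39l, at -4.48 (1.18e-11), with -2.12 in ES cells and 2.36 at EB day 8. Olig2 was at -5.37 (8.83e-18), Foxd1 at -4.22 (3.27e-13), Olig1 at -3.8 (5.29e-11) and Msc at -3.68 (1.84e-11). At EB day 8 Msc averaged only 0.425 RPKM in TET KO and 0.219 in TET WT, so a fall could hardly show there.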

How the results depend on the processing

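Counts of called genes moved most with the weight given to low values. For TET KO against TET WT, 1935 genes were called at a pseudocount of 0.1 RPKM, 637 at 1 RPKM and 2362 with limma-voom on the recovered reads, which kept 1032, 637 and 1032 of the 1035. The difference from DNMT KO had 1883 at 0.1 and 765 at 1 RPKM, that from EpiLC day 2 1580 and 599, and that from EB day 8 2893 and 1372. Leaving out each TET library in turn gave 1034 to 1067 genes, 1178 to 1239 for the difference from DNMT KO, 942 to 1000 for that from EpiLC day 2 and 1991 to 2022 for EB day 8. The other alternatives gave 911 to 1032 for TET KO against TET WT. With a replicate block the 4 counts were 1034, 1218, 983 and 2023; equal numbers did not pair the libraries (correlations 0.028, -0.021 and 0.001). Of the 210 named genes 183 kept their status in all 18 alternatives and none reversed; of 112 called, 88 stayed called, and the pseudocount of 1 RPKM ended 20 calls. Chosen after seeing the data, medians over all tested genes were -0.34 for chromosome 8 and -0.32 for chromosome 14. Depth limits genes near 0.05 RPKM, where 1 read decides, and the gene-level table cannot show which exons were read.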

Other observations

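Genes of antigen presentation were not a list of their own and were looked at after H2-K1 was seen among the largest rises, so they are given as values. B2m, the light chain of class I molecules, averaged 33.0 ± 4.05 RPKM in TET KO and 15.8 ± 1.93 in TET WT (SD, n = 3; log2 change 1.03). H2-DMa (1.44), H2-DMb1 (1.81), the immunoproteasome subunit Psmb9 (1.29), the peptide transporter Tap2 (1.06) and H2-Q10 (1.31) were called higher too, all from low levels: Psmb9 averaged 1.02 RPKM against 0.119 and Tap2 0.727 against 0.0869. Tap1 (0.75), Tapbp (0.05), H2-D1 (0.09) and Psmb8 (0.03) were not called, and Psmb10, on chromosome 8, was at -0.8. H2 genes are similar in sequence, so the reads of each are uncertain.

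2 further groups of neighbours were noticed in the same way. Cd3g, Cd3d and Cd3e, subunits of the T cell receptor complex next to each other on chromosome 9, averaged 3.19, 2.36 and 3.1 RPKM in TET WT and 0.318, 0.279 and 0.398 in TET KO, all called lower (log2 changes -2.17, -1.91 and -2.0). Tex19.1 and Tex19.2, adjacent germ cell genes on chromosome 11, were called higher: Tex19.1 averaged 101 ± 4.56 RPKM against 34.9 ± 1.51 in TET WT (SD, n = 3; log2 change 1.52), and DNMT WT, at 93.6, was near TET KO. Gm8909, a class I-like gene, rose from 0.0541 to 7.35 RPKM.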
